A study of Mus musculus with 25 samples.

Results

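The baseline transcriptome of neuronal nuclei from the young mouse hippocampus was described from 3 RNA-seq libraries of 25 in the series. They were chosen by their labels as the wild-type, male animals of 3 months in the aging experiment, and no other group was compared with them. Nuclei were released from flash-frozen hippocampi and sorted by FACS for the DNA dye Hoechst and for NeuN, the neuronal nuclear protein that Rbfox3 encodes. Each library came from 1 mouse, and the study's methods name C57BL/6J as the strain. The libraries therefore stand for males of 1 age and for the RNA of nuclei, without most of the RNA of the cytoplasm, axons and dendrites. All hippocampal subfields were sorted together, and nuclei of other cells that passed the gate would be counted with the neurons.

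The hippocampus holds glutamatergic principal neurons, which are the granule cells of the dentate gyrus and the pyramidal cells of the subfields CA1, CA2 and CA3, and a smaller and varied population of GABAergic interneurons. Each class receives its inputs through families of receptors and ion channels, whose paralogous subunits are encoded by separate genes. RNA inside the nucleus includes transcripts that seldom leave it, such as several long noncoding RNAs, beside newly made messenger RNA.

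The libraries held 7969282, 8019699 and 9491421 reads assigned to genes in replicates 1, 2 and 3. A count of 0 in a library therefore allowed a share of up to 0.376, 0.374 and 0.316 RPM, reads scaled to a common library total without division by length, which is the share of 3 reads. Intervals for shares are 95% Wilson intervals, and they and these floors cover counting error only. Of the 24411 genes listed, 13619 reached a mean normalised count of 10, the limit used for a detected gene, and 7395 had no read in any of the 3 libraries. Levels of different genes were compared per length, as reads per kilobase of exon scaled to the same total in every library, the usual TPM scale. The TPM of a gene also depends on the lengths of the other genes read in its library. Libraries can therefore rank differently in TPM and in RPM. Values with ± are the mean and SD over the 3 libraries, and neighbours in an order count as separate only where their 3 library values did not overlap. Genes named beyond the most abundant, leading, second and last ones were chosen after the values were seen.

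None of the libraries was a copy of another, and replicate 1 stood somewhat apart. The chi-square per degree of freedom between the reads of a pair was 46.3 for replicates 1 and 2, 41.7 for replicates 1 and 3, and 26.4 for replicates 2 and 3, where 1 stands for counting error alone. Over the 9595 genes with a mean normalised count of at least 100, Pearson's r of log2 levels was 0.887, 0.906 and 0.929 for the same pairs. These are correlations across genes, which are not independent replicates. The median absolute log2 difference was 0.42, 0.37 and 0.29. Replicates 2 and 3 were thus the closest pair by each measure.

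The label of neuronal nuclei was checked against 4 markers. Rbfox3, the NeuN gene, was at 185, 166 and 166 TPM in replicates 1, 2 and 3. Snap25, a protein of the vesicle fusion machinery of nerve terminals, was at 659.7, 777 and 765 TPM. Per length, replicate 1 was the highest for Rbfox3 and the lowest for Snap25. Rbfox3 hardly differed without division by length, at 214, 212 and 209 RPM. Snap25 stayed lowest in replicate 1, at 891, 1161 and 1126 RPM. Slc17a7, the vesicular glutamate transporter of most hippocampal principal neurons, was at 108, 134 and 122 TPM. Gad1, which encodes a GABA-synthesising enzyme and marks interneurons, was at 127, 116 and 147 TPM. All 4 markers were therefore present in every library, and the level of Gad1 as a percentage of that of Slc17a7 was 118, 86.1 and 121. Per length, Slc17a7 was thus above Gad1 in replicate 2 only. Without division by length Gad1 was above in all 3 libraries, at 194, 195 and 243 RPM against 115, 159 and 142 RPM for Slc17a7, so their order depends on the length used.

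Noncoding RNA led the transcriptome. Rn45s, the precursor of ribosomal RNA, took 3.92%, 4.0% and 2.63% of all reads in replicates 1, 2 and 3, and replicate 3 was the lowest. Malat1, a nuclear-retained long noncoding RNA (chr19:5795690-5802672 on the minus strand, GRCm38), took 2.24%, 1.28% and 1.56%. Meg3, an imprinted long noncoding RNA of the Dlk1-Dio3 region (chr12:109541001-109571726 on the plus strand), took 1.37%, 0.944% and 1.09%. Replicate 1 held the largest and replicate 2 the smallest share of both. The Wilson interval of the Malat1 share ran from 2.23% to 2.25% in replicate 1 and from 1.27% to 1.29% in replicate 2, so counting error was small beside the difference between these libraries. Next came Snhg11, a host gene of small nucleolar RNA (chr2:158375638-158386145 on the plus strand), at 0.806% ± 0.154 of reads, and Tmem181b-ps (chr17:6438524-6467022 on the minus strand), a pseudogene related to Tmem181, at 0.337% ± 0.0874. Reads of Tmem181b-ps could also belong to its parent gene, so its level is uncertain.

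The 20 largest shares also included genes of pumps, receptors and vesicle release. Atp1b1, the beta subunit of the sodium pump, took 0.207%, 0.303% and 0.338% of reads. Atp2b1, a calcium pump of the plasma membrane, took 0.18%, 0.254% and 0.256%. Both pump genes were lowest in replicate 1. The AMPA receptor subunits Gria2 and Gria1 were at 0.285% ± 0.0175 and 0.181% ± 0.0318. Of the genes of vesicle release and membrane traffic, Syt1, the calcium sensor of fast transmitter release, took 0.20% ± 0.0316, its relative Syt11 0.165% ± 0.0317, and Rtn1, a protein that shapes the endoplasmic reticulum, 0.218% ± 0.0505. Ndrg4, a member of the NDRG family, took 0.323%, 0.315% and 0.33% and had the lowest coefficient of variation of the 20, 2.28%.

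Metabolic, chaperone and surface proteins were also among the 20. Hspa8, the constitutive chaperone of the HSP70 family, took 0.291% ± 0.0558 of reads and Aldoa, the aldolase of glycolysis, 0.188% ± 0.0448. Pcdh9, an adhesion protein of the protocadherin family, took 0.368%, 0.178% and 0.258%, with replicate 1 the highest and replicate 2 the lowest. Prnp, which encodes the prion protein, took 0.106%, 0.21% and 0.202%, and replicate 1 was the lowest. Itm2c, a small membrane protein of the BRI family, and Cx3cl1, a chemokine of neurons that acts on the microglial receptor Cx3cr1, took 0.187% ± 0.0588 and 0.164% ± 0.0443. The 20 genes together held 11.8, 10.8 and 10.2 percent of reads in replicates 1, 2 and 3. The rest was spread widely, since 50% of all reads were reached only with 1088, 1043 and 1073 genes.

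Division by length changed the order of the abundant genes. Among genes with a matched length, Malat1 was first at 16149.7, 8333 and 10277 TPM in replicates 1, 2 and 3, and Snhg11 followed at 5663, 3481 and 4356 TPM. Calm2, one of the genes of calmodulin, the calcium sensor protein, was at 4342 ± 774 TPM, Atp1b1 at 4303 ± 851 TPM and Tmem181b-ps at 3843 ± 1222 TPM. These and Ubb, a ubiquitin gene at 3813 ± 992 TPM, overlapped in their library values. Itm2c at 3504 ± 952 TPM, Prnp at 3444 ± 1013 TPM, Hspa8 at 3177 ± 468 TPM and Ndrg4 at 3117 ± 197 TPM completed the first 10. Near-identical copies limit some of these levels, since the repeats of Ubb are shared by other ubiquitin sequences, and Hspa8 and calmodulin genes have processed copies elsewhere in the genome. Rn45s had no matched exon length and is not in this order. In all, 14410 genes lay over 1 TPM, 2415 over 100 TPM and 71 over 1000 TPM.

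**Figure D1:**
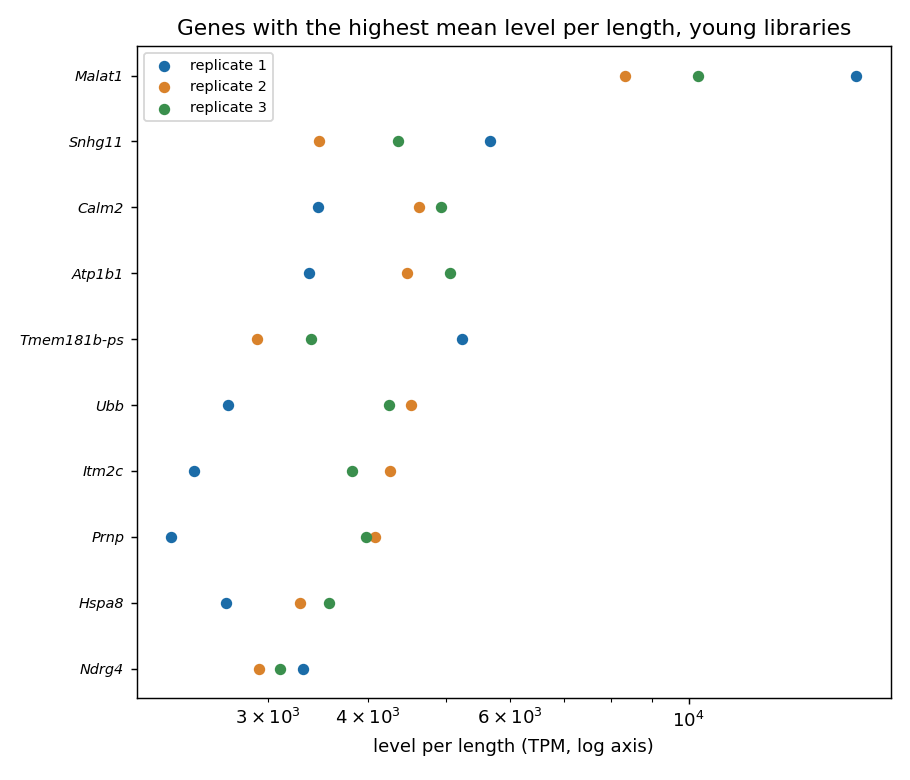
Level per length (TPM, log axis) of the 10 genes with the highest mean level, each point 1 library. Malat1 lies to the right of all other genes in every library, and replicate 1 is the highest point for Malat1, Snhg11, Tmem181b-ps and Ndrg4 and the lowest for the other 6.

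Genes at higher levels differed in structure and promoter sequence from genes without reads. Among the 2415 genes over 100 TPM, 2362 were protein-coding, the median exon length was 3550 bases and the median GC content of the longest transcript was 51.8%. Among the 7219 genes at 0 TPM these values were 4899 genes, 2108 bases and 46%. In the 250 bases before the start, taken from RefSeq on GRCm38.p6, the median number of CpG dinucleotides was 16 over 100 TPM, in 1870 promoters, and 2 at 0 TPM, in 3934 promoters. GGGCGG, the core of the GC box, stood on either strand in 59.6% of promoters over 100 TPM and in 14.5% of those at 0 TPM. TATAAA went the other way, with 6.36% over 100 TPM and 25.5% at 0 TPM. None of these features changed steadily with level. At 10 to 100 TPM the median exon length was 4925 bases and the median number of CpG dinucleotides 17. The shares there were 61% for GGGCGG and 5.46% for TATAAA. Exon length also divides the reads in TPM, so it is not independent of these classes. These are shares of letters in a window and not of bound sites, and genes are not independent replicates.

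Noncoding RNA genes held 8.86, 7.32 and 6.41 percent of all reads in replicates 1, 2 and 3, with a mean of 7.53% ± 1.24. It was highest in replicate 1 and lowest in replicate 3. The ribosomal RNA precursor and the long noncoding RNA genes contributed in different ways. Long noncoding genes alone held 4.94, 3.32 and 3.79 percent, highest in replicate 1 and lowest in replicate 2, whereas Rn45s was lowest in replicate 3. With Rn45s left out of the total, the noncoding share was 4.17%. Protein-coding genes held 90.1, 91.9 and 92.8 percent and pseudogenes 0.756, 0.558 and 0.596 percent. Small noncoding RNA genes held only 0.000489, 0.000686 and 0.000558 percent, in libraries described as made from polyadenylated RNA.

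A few genes made up most of the long noncoding share. Of 1823 long noncoding genes in the GENCODE annotation, 464 reached a mean normalised count of 10. Malat1 and Meg3 stood first, at 1.69% ± 0.496 and 1.13% ± 0.215 of all reads. Snhg11, at 0.806% ± 0.154, was annotated as protein-coding in GENCODE and as noncoding in RefSeq, and with RefSeq types all noncoding genes held 9.9, 7.92 and 7.17 percent. The fifth noncoding gene by share was 2900097C17Rik, at 0.117%, 0.172% and 0.194%, which was the lowest in replicate 1, unlike Malat1, Meg3 and Snhg11. Kcnq1ot1, an imprinted transcript antisense to Kcnq1, took 0.141% ± 0.0414 of reads, and as the table does not state counting by strand, its reads cannot be told from those of Kcnq1.

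In the list of 25 long noncoding RNA genes, 24 were in the table and 23 reached a mean of 10. Their summed level was 27802, 16228 and 19277 TPM in replicates 1, 2 and 3, of which Malat1 made up 54.9%. Replicate 1 was the highest library by RPM for 17 of the 23, where it was the highest for 38.4% of the 13619 detected genes. Miat, another nuclear RNA of neurons, was at 449 ± 70.5 TPM, Gas5, a host of small nucleolar RNAs, at 177 ± 50.1 TPM and Tug1 at 99.8 ± 11.9 TPM. Neat1, the scaffold of nuclear paraspeckles, was at only 0.941, 2.48 and 2.95 TPM and Rian, from the Meg3 region, at 38.1, 24.8 and 21.3 TPM. Neat1 was lowest and Rian highest in replicate 1.

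Pan-neuronal markers were the highest of the marker lists. All 12 were detected, with a summed level of 3959, 4953 and 4852 TPM in replicates 1, 2 and 3. Replicate 1 was the lowest library by RPM for 9 of them, where it was the lowest for 35.1% of the 13619 detected genes. Syt1 led at 987, 1172 and 1223 TPM, overlapping with Syp, a synaptic vesicle protein, at 828, 1134 and 1132 TPM. Both were lowest in replicate 1. The lowest of the list was Dlg4, the scaffold of the postsynaptic density known as PSD-95, at 12.1, 18.9 and 6.56 TPM, which was lowest in replicate 3. In bulk RNA, fewer cells of a type and less RNA per cell cannot be told apart, which holds for every marker level given here.

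Glutamatergic markers exceeded GABAergic markers per length in every library. The 8 glutamatergic genes summed to 1624, 1855 and 1776 TPM, led by Camk2a, a kinase of excitatory synapses, at 798, 895 and 793 TPM. The 8 GABAergic genes summed to 459, 522 and 486 TPM. All genes of both lists were detected, and their ranges across libraries did not overlap. The GABAergic sum was 28.3, 28.1 and 27.3 percent of the glutamatergic sum in replicates 1, 2 and 3, 27.9% ± 0.504. The value depended on the length used, and without division by length it was 41.1%. Slc17a6, a second vesicular glutamate transporter, was at 20.8, 10.6 and 39.3 TPM, and Slc32a1, the vesicular GABA transporter, at 3.83, 7.9 and 4.52 TPM.

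Markers of interneuron subtypes spanned a wide range. All 13 were detected, with a sum of 2823, 4150.2 and 3926 TPM, lowest in replicate 1. The peptide gene Cck, which pyramidal cells also transcribe, led at 1272, 2229 and 1870.0 TPM, followed by Npy at 652 ± 124 TPM and Sst at 575 ± 79.6 TPM, and the values of Npy and Sst overlapped. Pvalb, the calcium-binding protein of fast-spiking cells, was far lower per length, at 25.4, 35.4 and 21 TPM. Ndnf, a marker of neurogliaform cells, was the lowest at 7.12 ± 2.18 TPM.

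The principal neurons of all subfields left their markers in the libraries. Dentate granule cell markers summed to 944, 1077 and 854 TPM and were led by C1ql2, a secreted synaptic protein of mossy fibres, at 471, 729.9 and 448 TPM. The CA1 list summed to 926, 1313 and 1466 TPM and was led on the mean by Fibcd1, a transmembrane receptor, at 261, 523 and 507 TPM. Fibcd1 overlapped with Mpped1 at 305, 258 and 205 TPM, which led in replicate 1. The dentate sum was highest in replicate 2 and lowest in replicate 3, and the CA1 sum was lowest in replicate 1. The CA3 list summed to 962, 1342 and 1393 TPM, of which Dkk3, a secreted protein of the Dickkopf family, made up 75.7%. The CA2 list summed to 498, 611 and 448 TPM, led by Pcp4, a calmodulin-binding protein, at 264, 248 and 209 TPM. Single markers did not always move with their list. Wfs1, a CA1 marker of the endoplasmic reticulum, was at 134, 183 and 386 TPM, highest in replicate 3, and Prox1, the transcription factor of granule cells, was at 27.4, 28 and 7.59 TPM, lowest in replicate 3. Whether the subfields were sampled in different proportions was not tested.

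Rarer neuronal types gave low sums. Mossy cell markers summed to 27.8, 28.1 and 33.8 TPM, of which Calb2, which interneurons also make, held 75.6%. The 3 subiculum markers summed to 79.3, 21.1 and 80.5 TPM, led by Slc17a6, and replicate 2 was the lowest. The Cajal-Retzius list rested on Reln, a secreted glycoprotein that interneurons also make, at 12.5, 11.2 and 13.7 TPM, since Lhx1 and Lhx5 had no read in any library. Newborn neuron markers summed to 228, 129 and 145 TPM. They were led by Sox11, a transcription factor of immature neurons, at 125, 45.5 and 75.2 TPM, with replicate 1 the highest, while Draxin had no read. Dividing progenitor markers summed to 19.7, 25.2 and 8.31 TPM, led by Hes5, a target of Notch signalling, and Top2a had 3 or fewer reads in each library.

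Glial markers were present in every library, each list far below the pan-neuronal sum. Astrocyte markers, 11 of 11 detected, summed to 987, 717 and 565 TPM, and oligodendrocyte markers, 10 of 10 detected, to 378, 737 and 597 TPM. Replicate 1 was the highest library for the first and the lowest for the second. Aldoc, an aldolase of astrocytes, led the astrocyte list at 599, 344 and 335 TPM and made up 56.3% of its sum. Mbp, a protein of the myelin sheath, led the oligodendrocyte list at 114, 196 and 149.6 TPM. By RPM, 8 of the 11 astrocyte members were highest in replicate 2 and 3 in replicate 1. Most were thus not highest in the library where the astrocyte sum, in TPM, was highest. Of the 13619 detected genes, 32.2% were highest in replicate 2 and 38.4% in replicate 1. Aqp4, the astrocytic water channel, was at 5.26, 10.6 and 4.13 TPM. Microglial markers, 10 of 11 detected, summed to 217, 269 and 189 TPM. Oligodendrocyte precursor markers, 5 of 6 detected, summed to 44.3, 27.1 and 24.2 TPM. Their leading gene was Olig1, a transcription factor of the lineage, at 37, 12.1 and 15.1 TPM, while its relative Olig2 had 3 or fewer reads in each library.

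The summed level of the 4 glial lists was 41.1, 35.3 and 28.4 percent of the pan-neuronal sum in replicates 1, 2 and 3, or 34.9% ± 6.37. The percentage was thus highest in replicate 1 and lowest in replicate 3. Much of it came from 3 genes that other cells also transcribe to some extent. Without these 3 genes, an alternative chosen after the data were seen, the value was 20.3, 24.3 and 17.6 percent, and replicate 2 was then the highest. The lists hold different numbers of genes, so these percentages are no estimate of the share of glial nuclei.

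Markers of vessels, blood and the ventricle wall were low, with 1 exception. Endothelial markers summed to 58.8, 40.5 and 56.5 TPM, of which Itm2a, a small membrane protein that is not limited to vessels, held 84.1%, and the defining genes Pecam1 and Cdh5 had no read in any library. Mural cell markers summed to 15.6, 13.5 and 8.31 TPM and were led by Vtn, the gene of vitronectin, at 8.49 ± 3.15 TPM. Red blood cell markers summed to 37.6, 54.2 and 63.3 TPM, of which Hba-a1 held 93.4%, while its near-identical copy Hba-a2 had no read, so that these haemoglobin genes cannot be told apart. Hbb-bs had no read, and Hbb-bt had 3 or fewer reads in each library. The choroid plexus and ependyma list was the exception, at 46.5, 596 and 380.2 TPM. Ttr, the thyroid hormone carrier transthyretin made in the choroid plexus, had 71, 1178 and 890 reads and made up 94.4% of the sum. Replicate 1 was far below the other libraries, while the ependymal genes Tmem212 and Foxj1 had 3 or fewer reads in each library. How much choroid plexus RNA each library held was not tested beyond these values.

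Lists of neurons of neighbouring regions were also low. Striatal markers summed to 61.2, 48.8 and 60.4 TPM. The cortical layer list summed to 47.9, 37 and 51 TPM, led by Fezf2, a transcription factor of deep-layer projection neurons, at 40.6, 32.2 and 45.6 TPM.

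**Figure D2:**
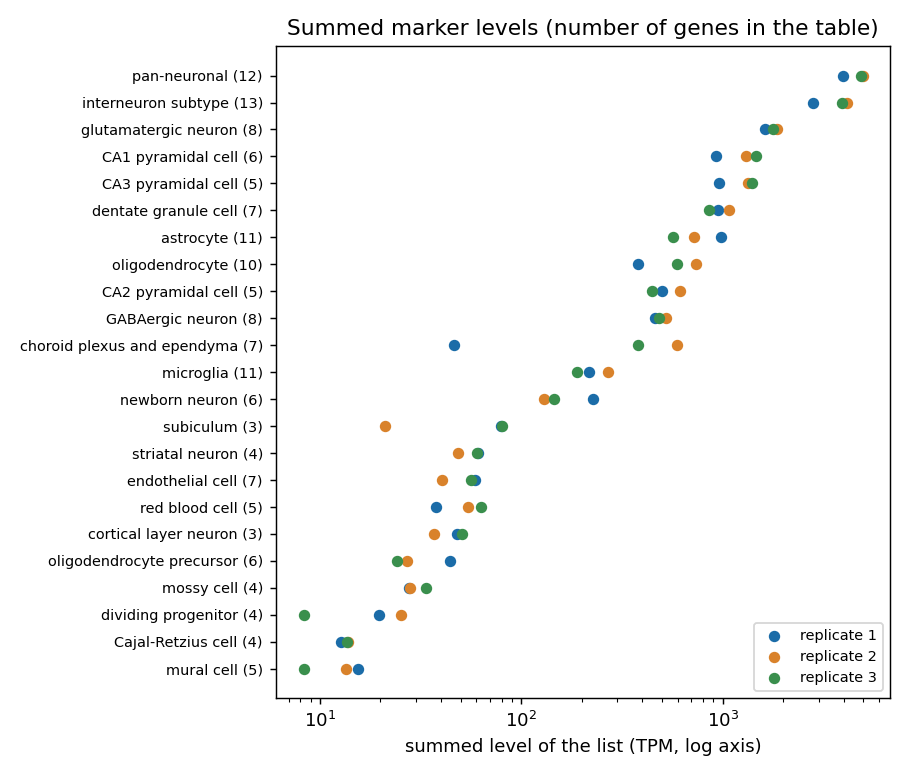
Summed level per length (TPM, log axis) of each marker list, with the number of its genes in brackets and 1 point for each library. Pan-neuronal, interneuron and glutamatergic lists lie furthest to the right, and the choroid plexus list of replicate 1 lies far to the left of those of replicates 2 and 3.

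Genes of the sex chromosomes gave the pattern of male mice that the label states. Eif2s3y, a translation factor gene of the Y chromosome, was at 110.5, 103 and 95.2 TPM in replicates 1, 2 and 3. The other Y-linked genes of the list, Ddx3y, Kdm5d and Uty, were at 51.1 ± 25, 31.8 ± 13.8 and 16.3 ± 1.54 TPM. Xist, the RNA that silences an X chromosome in females, had 3, 7 and 4 reads. All 4 Y-linked genes were thus above Xist per length in each library, at 0.105, 0.221 and 0.108 TPM for Xist.

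Replicates 1 and 2 differed in opposite directions by the length and base composition of genes. For the genes with a mean normalised count of at least 100, the log2 of RPM plus 1 was set against the mean of the 3 libraries, with the median of each library set to 0. In the 1909 genes with the longest exons, of 8449 bases or more, the median log2 deviation was 0.16, -0.10 and -0.06 in replicates 1, 2 and 3. In the 1910 genes with the shortest, of up to 2884 bases, it was -0.15, 0.13 and 0.03. Replicate 1 was thus relatively high in long and low in short genes, and replicate 2 the reverse. Genes of low GC content, up to 43.7% in the longest transcript, had medians of 0.11, -0.12 and 0.00, and genes of 55.2% or more had -0.09, 0.10 and 0.00. The 139 long noncoding genes at this abundance had medians of 0.25, -0.11 and -0.10, and 61.9% of them were highest in replicate 1, against 36.5% of 9373 protein-coding genes. Exon length, GC content and gene class overlap as properties, and which of them the libraries differ by was not tested.

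**Figure D3:**
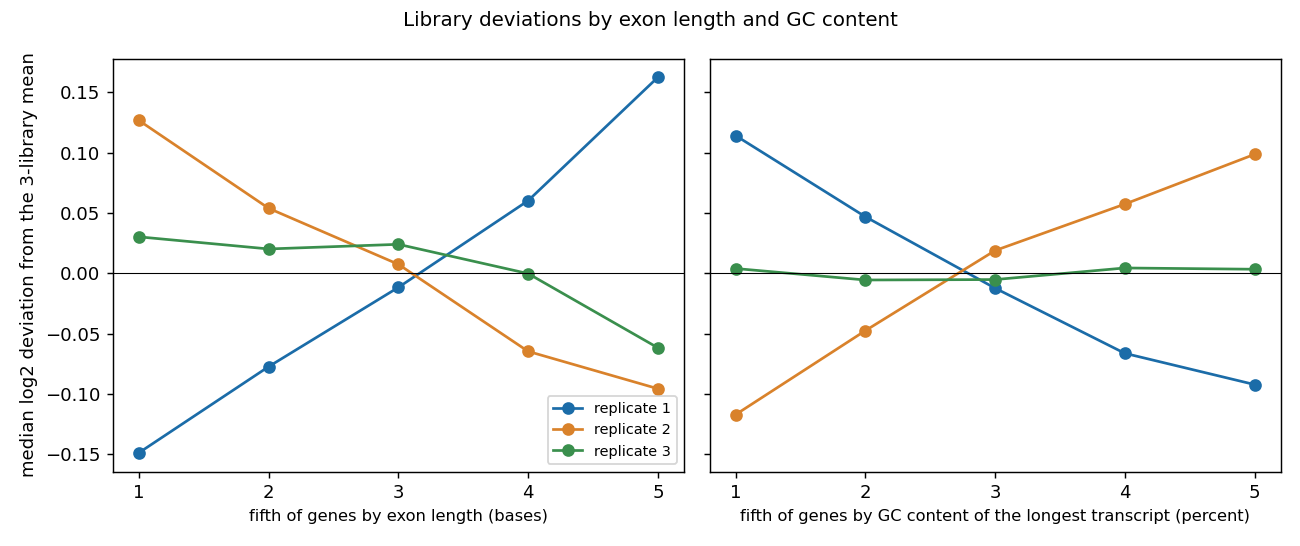
Median log2 deviation of each library from the mean of the 3 libraries, for 5 classes of genes ordered by exon length (left, bases) and by GC content of the longest transcript (right, percent). Replicate 1 (blue) and replicate 2 (orange) slope in opposite directions in both panels, and replicate 3 (green) has a flatter slope.

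Immediate early genes, which neurons transcribe within minutes of activity, were all detected and were mostly highest in replicate 3. The 16 genes summed to 1541, 1693 and 2461 TPM in replicates 1, 2 and 3. Replicate 3 was the highest library by RPM for 11 of them, where it was the highest for 29.4% of the 13619 detected genes. Arc, a regulator of AMPA receptor traffic, led at 404, 534 and 830.1 TPM. Fos, a transcription factor of the AP-1 family, was at 57.1, 74.7 and 124 TPM, and Nr4a1, an orphan nuclear receptor, at 162, 213 and 318 TPM. For these 3 genes replicate 1 was the lowest. Not all members followed, since Btg2, an inhibitor of proliferation, was at 229, 227 and 199 TPM and Fosb at 2.32, 1.09 and 1.4 TPM. The state of the animals before the hippocampi were frozen was not analysed here.

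Promoters of 4 of these genes are shown as examples of the element described below and were chosen after the values were seen. RefSeq promoters were matched for 12 of the 16 genes, and those of Arc, Egr1, Egr3 and Ier2 were not in the table used. Sequences are the 250 bases before the start on GRCm38.p6, printed 5′ to 3′ on the strand of the gene. Capitals mark TGACG or its reverse complement CGTCA, the shorter form of the cAMP response element. The windows are chr12:85473640-85473889 (plus strand) for Fos, chr15:101266596-101266845 (plus strand) for Nr4a1, chr8:84978749-84978998 (minus strand) for Junb and chr17:26508473-26508722 (minus strand) for Dusp1.
Fos: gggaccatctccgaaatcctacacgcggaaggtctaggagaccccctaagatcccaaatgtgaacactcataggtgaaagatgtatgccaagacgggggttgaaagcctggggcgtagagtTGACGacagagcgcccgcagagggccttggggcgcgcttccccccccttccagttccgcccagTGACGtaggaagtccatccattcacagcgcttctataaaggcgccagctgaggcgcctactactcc
Nr4a1: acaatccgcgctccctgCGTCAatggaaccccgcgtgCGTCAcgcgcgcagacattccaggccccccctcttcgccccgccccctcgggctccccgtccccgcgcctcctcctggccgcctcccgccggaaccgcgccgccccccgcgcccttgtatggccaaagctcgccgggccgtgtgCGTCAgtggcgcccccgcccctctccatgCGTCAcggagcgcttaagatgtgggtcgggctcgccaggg
Junb: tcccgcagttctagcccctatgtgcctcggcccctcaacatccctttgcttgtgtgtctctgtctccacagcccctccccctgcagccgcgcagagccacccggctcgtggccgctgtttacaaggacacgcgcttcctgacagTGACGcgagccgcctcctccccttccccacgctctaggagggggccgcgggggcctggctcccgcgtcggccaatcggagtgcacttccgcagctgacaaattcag
Dusp1: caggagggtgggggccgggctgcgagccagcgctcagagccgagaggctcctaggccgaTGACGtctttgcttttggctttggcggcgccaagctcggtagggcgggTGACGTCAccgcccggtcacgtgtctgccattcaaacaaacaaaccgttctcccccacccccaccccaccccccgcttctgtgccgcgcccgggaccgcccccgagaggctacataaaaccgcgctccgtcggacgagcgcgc

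TGACG stood on either strand in 11 of the 12 promoters, all but that of Egr2, and in 17.9% of 27025 promoters of the same length. Among promoters of genes at 10 to 100 TPM and over 100 TPM the share was 28.3% and 31.3%. The full palindrome TGACGTCA, which contains TGACG, stood in 2 of the 12, those of Btg2 and Dusp1, in 1.62% of all promoters, and in 2.78% and 3.8% in the same classes of level. GGGCGG stood in 9 of the 12 and in 32.9% of all, but in 61% at 10 to 100 TPM and 59.6% over 100 TPM. TATAAA stood in 2, those of Fos and Nr4a2, and in 13% of all, with 5.46% and 6.36% in these classes. The CArG box was found in 0 of the 12 windows and in 1.4% of all. These matches describe letters in a window and say nothing of binding.

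Receptor and channel paralogues were ranked per length in 45 families with 288 genes. Of these genes 224 were detected and 26 had no read in any library. In 44 families at least 2 members were detected, and in 32 of those the same member led in all 3 libraries. The leading member was separate from the next in 26 families, and 80 of 179 pairs of neighbours were separate. The choice of length mattered. The leader was another gene in 4 families with the longest transcript, in 13 with the mean transcript length and in 16 without division by length, and the same gene led under all 4 settings in 26 families.

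The AMPA receptor, the main channel of fast excitation, had a clear order of subunits by the exon union. Gria1 was at 1209, 1544 and 1479 TPM in replicates 1, 2 and 3. Gria2, whose subunit keeps calcium out of the channel, was at 969, 777 and 862 TPM, and Gria3 at 285, 224 and 298 TPM. Gria1 was lowest and Gria2 highest in replicate 1, but the libraries of the 2 genes did not overlap. Gria4 followed at 178, 93.3 and 121 TPM, also separate from Gria3. The first place depended on length, since Gria2 was above Gria1 with the mean transcript length, at 1265 ± 118 against 969 ± 138 TPM, and without division by length. Among the auxiliary subunits, which set gating and traffic of the receptor, Cnih3 at 283 ± 58.8 TPM and Shisa7 at 265 ± 26.2 TPM overlapped, and Shisa7 led in replicate 3 and under the other 3 length settings. Cacng4, from the family of stargazin, had no read.

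NMDA receptor subunits were lower, and their first 4 members were separate. The obligatory subunit Grin1 was at 191, 206 and 179 TPM, followed by the glutamate-binding subunits Grin2b at 103, 82.9 and 82.6 TPM and Grin2a at 59.7, 39.8 and 39.2 TPM. The mean of Grin1 was 2.15-fold that of Grin2b, which stood above Grin2a in every library and led without division by length. Grin3a was at 26.7 ± 4.73 TPM and Grin3b at 3.6 ± 4.17 TPM. Grin2d and Grin2c stood at 9, 0 and 1 and 0, 1 and 0 reads, below the limit for detection. Their low counts allow no order between them.

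Kainate receptors were led by Grik4 at 103 ± 16.6 TPM, ahead of Grik2 at 73 ± 12.2 TPM, with Grik3 last at 32 ± 2.13 TPM. The values of Grik4 and Grik2 overlapped, and Grik2 led with the mean transcript length and without length. Grid1, a delta receptor that binds cerebellins at synapses, was at 48.7 ± 6.82 TPM. Metabotropic receptors, which signal through G proteins, were led by Grm7 at 585, 354 and 376 TPM and Grm5 at 454, 331 and 382 TPM. The libraries of Grm7 and Grm5 overlapped, and Grm5 led in replicate 3, with the mean transcript length and without length. Grm6, known from the retina, was last with 0, 1 and 0 reads.

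GABA-A receptors are chloride channels built from several subunit classes. Among alpha subunits Gabra5, typical of the hippocampus, was at 243, 364 and 402 TPM in replicates 1, 2 and 3. Its level was the highest of the class in every library. Gabra4 was at 156 ± 19 TPM, Gabra2 at 101 ± 18.8 TPM and Gabra3 at 68.7 ± 16.2 TPM, where Gabra4 was separate from Gabra5 and Gabra2, and Gabra2 overlapped with Gabra3. Gabra6, a cerebellar subunit, had 0, 1 and 0 reads. Of the beta subunits Gabrb2 was at 220.4, 153 and 206 TPM and Gabrb1 at 128, 104 and 120.4 TPM. These were separate, but Gabrb1 led its class without division by length. Of the remaining subunits Gabrd, the extrasynaptic subunit of granule cells, was at 163, 143 and 188 TPM. It was separate from Gabrg1 at 9.11 ± 1.17 TPM, which was above Gabrr2 at 2.93 ± 1.88 TPM and Gabrg3 at 2.73 ± 0.359 TPM, whose ranges overlapped. Gabrq, Gabrr1 and Gabre were below the limit for detection, and Gabrp and Gabrr3 had no read.

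Among slower and glycinergic inhibitory receptors, Gabbr1 at 215 ± 28.7 TPM was separate from its obligate partner Gabbr2 at 74.2 ± 8.9 TPM. The glycine receptor list was led by Glrb, the beta subunit that binds gephyrin, at 178, 192 and 234 TPM, with Glra2 at 32, 16.4 and 29.3 TPM. Glrb was 7.78-fold above Glra2, and Glra4 had no read.

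Receptors of modulatory transmitters often had 1 gene well ahead. The nicotinic subunit Chrnb2 was at 151, 162 and 153 TPM and Chrna4, its usual partner, at 109.6, 21 and 26.6 TPM, with replicate 1 far the highest for Chrna4. Chrnb2 led in each library, and Chrnb4 had no read. The muscarinic receptor Chrm1 was at 443 ± 39.8 TPM, 11-fold above Chrm4 at 40.4 ± 13.3 TPM, and Chrm2 was last at 5.56 ± 3.74 TPM. Among serotonin receptors the interneuron channel Htr3a at 125, 167 and 142 TPM and the G protein-coupled Htr4 at 194, 96.3 and 99.4 TPM overlapped. Htr4 led in replicate 1, with the mean transcript length and without length, and Htr3b, the partner of Htr3a, had no read.

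The dopamine receptor Drd5 was at 63.7 ± 6.06 TPM, separate from Drd1 at 19 ± 12.8 TPM, and Drd3 had no read. The adrenergic receptor Adra1d was at 57.1, 114 and 116 TPM and stood 12.4-fold above Adra2b at 0, 13.4 and 9.81 TPM. Both were lowest in replicate 1, with no Adra2b read there. Oprl1, the nociceptin receptor, was at 247, 254 and 339 TPM and exceeded Oprk1, the kappa opioid receptor at 2.62, 2.54 and 4.04 TPM, by 91.3-fold. It was the largest lead of any family, and Oprd1, the delta receptor, was last at 1.71 ± 1.45 TPM. Of the adenosine receptors only Adora1, an inhibitor of transmitter release, was detected, at 213, 246 and 225 TPM, and Adora3 was last with 0, 3 and 0 reads.

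Of the receptors of neuropeptide Y, Npy1r was at 181, 80.2 and 145 TPM and Npy2r, which sits on nerve terminals, at 47.3, 182 and 159.9 TPM. Replicate 1 was high for Npy1r and low for Npy2r, so the leader differed between libraries. Npy2r led with the mean transcript length, and Npy4r and Npy6r had no read. The somatostatin receptor Sstr4 was at 264 ± 35 TPM, separate from Sstr1 at 92.1 ± 16.1 TPM, and Sstr5 had no read. Of the ATP-gated P2X channels P2rx4 at 21.8, 15.6 and 23.7 TPM led P2rx5 at 14.2, 0 and 18.3 TPM in every library. Their ranges overlapped, P2rx5 had no read in replicate 2, and P2rx2 had none in any library.

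Voltage-gated sodium channels, which carry the action potential, were led by Scn2a at 233, 174 and 234 TPM and Scn8a at 208, 169.8 and 179 TPM. Scn2a was higher in each library, but the ranges overlapped, and Scn8a led with the mean transcript length and without length. Scn4a and Scn11a, of muscle and sensory neurons, had no read. The beta subunit Scn2b, an adhesion protein that modifies the channel, was at 1038, 1192 and 1276 TPM, 2.35-fold above Scn3b at 328, 584 and 577 TPM. Scn4b was last at 7.16 ± 3.24 TPM. The beta list summed to 1781 ± 286 TPM and the alpha list to 654 ± 84.4 TPM per length.

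The leading calcium channel subunits overlapped. Cacna1b, the pore of N-type channels, was at 161, 124 and 146 TPM and Cacna1e, that of R-type channels, at 173, 120.1 and 114 TPM. Cacna1e led in replicate 1 and Cacna1b in the others, and Cacna1e led under the other 3 length settings, while Cacna1f of the retina had no read. Among beta subunits Cacnb3 at 103 ± 33.2 TPM and Cacnb4 at 76.3 ± 15 TPM overlapped, Cacnb4 led in replicate 3 and without length, and Cacnb2 was last at 4.84 ± 1.53 TPM. Among alpha2delta subunits Cacna2d1, a target of gabapentin, at 126 ± 26.8 TPM overlapped with Cacna2d3 at 87.3 ± 18.2 TPM, which led with the mean transcript length. Cacna2d4 was last with 0, 3 and 0 reads.

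Voltage-gated potassium channels, which repolarise the membrane, were led by Kcna1 at 393, 373 and 359.6 TPM among Kv1 channels, 4.35-fold above Kcna4 at 86.3 ± 11.8 TPM. All 3 libraries gave a similar level of Kcna1, and Kcna10 had no read. Kcnc2 led the fast Kv3 channels at 309.6, 289 and 280.5 TPM, and was separate from Kcnc4 at 143 ± 35.4 TPM. Kcnd2, the A-type channel of dendrites, was at 115 ± 13.8 TPM, separate from Kcnd3 at 36.8 ± 16 TPM, and Kcnd1 was last at 13.9 ± 5.93 TPM. Of the modifier subunits, which form no channel alone, Kcnf1 at 118 ± 20.1 TPM was separate from Kcns1 at 69.4 ± 21.3 TPM, and Kcng3 was last with 10, 0 and 0 reads.

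Of the Kv7 channels Kcnq5 was at 52.3, 24.2 and 41.5 TPM, separate from Kcnq3, a subunit of the M-current, at 6.14 ± 0.859 TPM, and Kcnq1 was last with 0, 9 and 0 reads. In the EAG, ERG and ELK family Kcnh3 at 48.5 ± 1.46 TPM and Kcnh1 at 47.8 ± 11.7 TPM overlapped, Kcnh1 led in replicate 2 and without length, and Kcnh6 was last with 0, 9 and 5 reads. Kcnn2, a small-conductance channel, at 89.3 ± 7.46 TPM overlapped with Kcnma1, the large-conductance channel, at 75.3 ± 8.15 TPM, and Kcnn4 had no read. Kcnt1, a sodium-activated channel, led that family in replicate 1, and Kcnma1 with the mean transcript length and without length.

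Channels that act near the resting potential also had clear and close ranks. Among inward rectifiers the GIRK subunit Kcnj9 was at 174, 105 and 219 TPM and Kcnj6 at 109, 103 and 84.7 TPM. Their ranges overlapped, Kcnj6 led under the other 3 length settings, Kcnj3 led in replicate 2, and Kcnj1 and Kcnj5 had no read. Among two-pore channels Kcnk1 was at 256, 325 and 263 TPM, 9.83-fold above Kcnk12 at 31.3, 31.6 and 22.9 TPM. Kcnk5 and Kcnk16 had no read. HCN channels, which carry the hyperpolarisation-activated current, were low, with Hcn3 at 19.6, 4.77 and 29.9 TPM. Replicate 2 was far the lowest for Hcn3. Hcn2 and Hcn4 had 3, 8 and 14 and 7, 0 and 0 reads, below the limit for detection.

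Trpc6 at 154, 91.5 and 143 TPM and Trpc4 at 77.9, 93.8 and 94.7 TPM led the receptor-operated TRPC channels. Trpc4 led in replicate 2 and under the other 3 length settings, their ranges overlapped, and Trpc2, a pheromone channel, was last at 6.19 ± 2.89 TPM. Trpm7, a channel with a kinase domain, was at 73.5 ± 18.6 TPM, separate from Trpm2 at 25.1 ± 5.05 TPM, and Trpm1 and Trpm5 had no read. Of the ClC family Clcn4 at 281 ± 55.3 TPM led Clcn7, of lysosomes, at 187 ± 42.7 TPM in every library. The ranges of Clcn4 and Clcn7 overlapped. Asic2, an acid-sensing channel, was at 55.3 ± 4.65 TPM, separate from Asic4 at 28.8 ± 14.8 TPM, and Asic3 had no read.

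Calcium release channels and calcium effectors had separate leaders. The ryanodine receptor Ryr3 was at 176, 171 and 145 TPM, Ryr2 at 84.2, 58.7 and 48.4 TPM and Ryr1 at 43.9, 34.3 and 20.7 TPM. All 3 were separate, and Ryr1, known from muscle, was the lowest in each library. Itpr1, the IP3 receptor of neurons, was at 52.9, 46.4 and 65.7 TPM and stood 25.7-fold above Itpr2 at 0.809, 2.76 and 2.86 TPM. Itpr3 was last at 1.13 ± 0.998 TPM. The 3 calmodulin genes encode the same protein. Calm2 was at 3465, 4630.1 and 4931 TPM and Calm3 at 137, 185 and 157 TPM. They were separate, and Calm2 led the family in every library and under all 4 length settings. Among the isoforms of CaMKII, a kinase of synaptic plasticity, Camk2a was at 829 ± 57.2 TPM, Camk2b at 318 ± 59.5 TPM and Camk2d last at 8.86 ± 5.07 TPM, and all neighbours were separate.

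**Figure D4:**
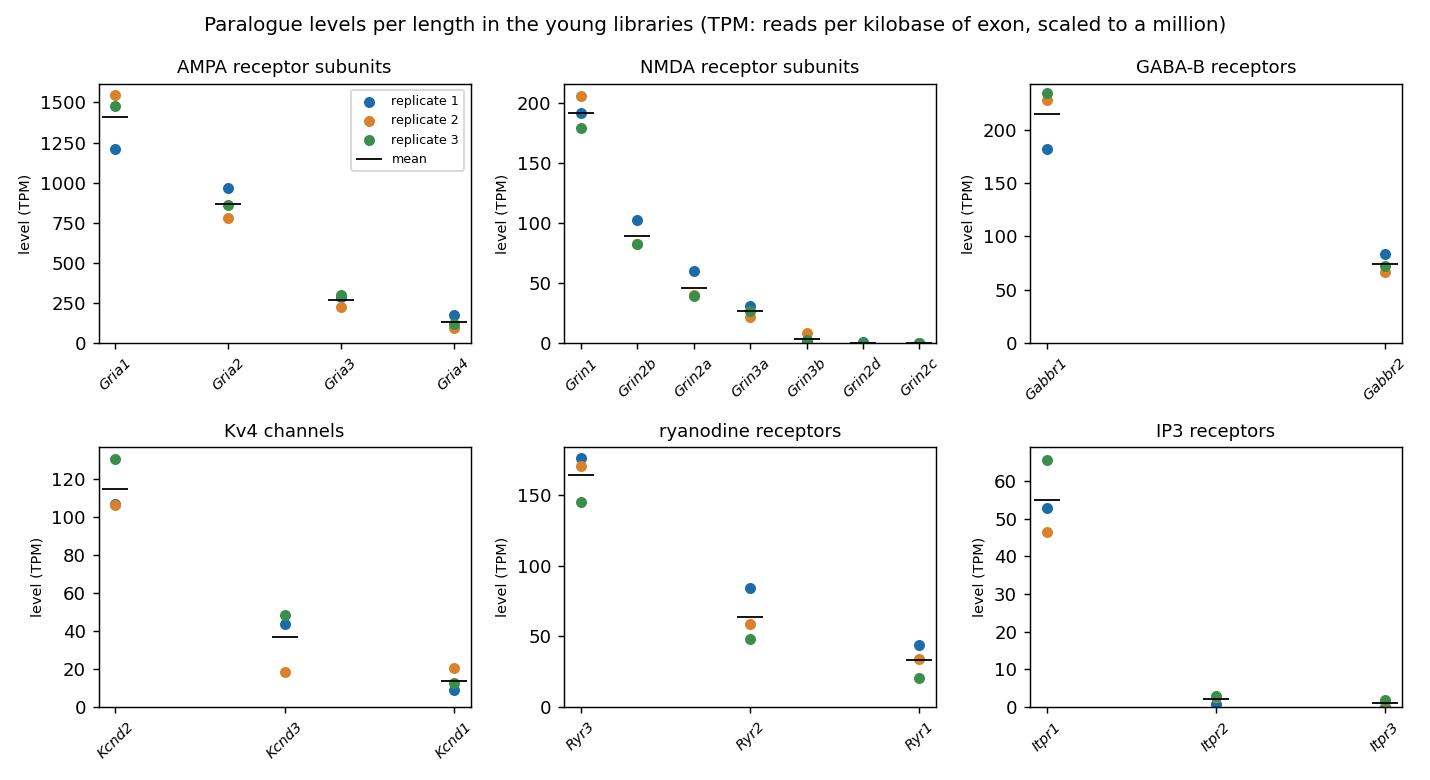
Level per length (TPM) of the members of 6 families, with 1 point for each library and a line at the mean. Gria1, Grin1, Gabbr1, Kcnd2, Ryr3 and Itpr1 each lie above the next member of their family in every library.

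The spread between the 3 libraries was larger than counting error at all abundances. Over the 13619 detected genes the median coefficient of variation was 27.2%, where counting error alone would give a median of 6.35%. It was 85.3% for genes with a mean normalised count of 10 to 30, 28.2% at 100 to 300 and 17.1% at 1000 to 3000. Above 3000 it did not fall further, at 18.5% in 382 genes, while the counting error there was 1.5%. With any 1 library left out the median was lower, 19.2% without replicate 1, 23.3% without replicate 2 and 25.8% without replicate 3. These come from 2 libraries each, so they are not on the same footing as the value from 3. Among genes of at least 100, 6.4% had a coefficient above 50% and 14% one below 10%.

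The most variable genes with a mean of at least 100 had no library in common as the highest. Zbtb46, a zinc finger factor known from dendritic cells, had the largest coefficient, 124%, with 42, 336 and 43 reads in replicates 1, 2 and 3. Mid1, an X-linked ubiquitin ligase, had 147, 492 and 30 reads and Pcdhac1, of the alpha protocadherin cluster, 106, 376 and 24. All 3 were highest in replicate 2. Pcdhac1 shares its last exons with the other alpha protocadherins, so its reads are uncertain. Replicate 1 was the highest for Zfp873, a zinc finger gene, with 375, 79 and 48 reads, and for Adamts15, a secreted protease, with 304, 28 and 87 reads. It was also the highest for Rbms2, an RNA-binding protein, with 253, 36 and 55 reads. Sfmbt2, an imprinted Polycomb group gene, had 314, 82 and 40 reads and Rttn, of the centrosome, 235, 27 and 73 reads, again highest in replicate 1. Gsn, the actin-severing protein gelsolin, had 5, 371 and 177 reads and Tmem254c 18, 391 and 157 reads, both lowest in replicate 1. Tmem254c has near-identical copies beside it, and its level is uncertain. The coefficients of the other 9 genes ran from 104% to 111%.

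At the other end, the least variable genes with a mean of at least 1000 included the gene used for sorting. Erp29, a chaperone of the endoplasmic reticulum, had a coefficient of 0.772% and 127, 127 and 129 RPM in replicates 1, 2 and 3. Hpcal4, a neuronal calcium sensor, followed with 1.04%, Rbfox3 with 1.11%, Psma3, a proteasome subunit, with 1.22% and Pcnxl4, a membrane protein of the pecanex family, with 1.24%. Rbfox3 stood at 214, 212 and 209 RPM. These coefficients lie below the median counting error of 2.47% among the 1973 genes of this abundance, so with 3 libraries their order carries little weight.

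**Figure D5:**
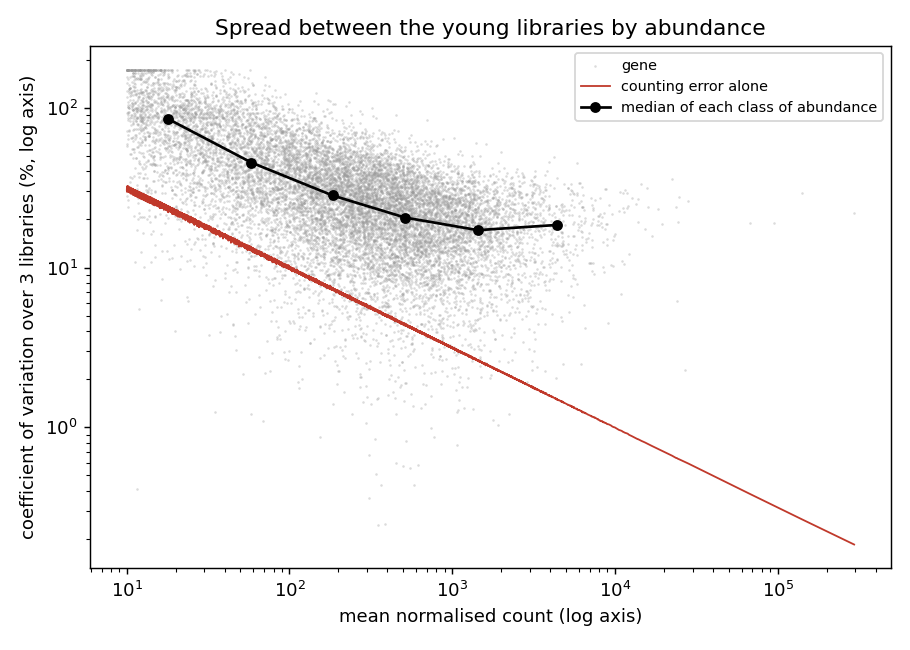
Coefficient of variation over the 3 libraries (%, log axis) against the mean normalised count (log axis), with 1 grey point for each detected gene, black points for the median of each class of abundance and a red line for counting error alone. The black line falls up to the class of 1000 to 3000 and stays above the red line throughout.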

How the data were processed

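The unit "signal" was set from the values: deposited gene counts that the authors had divided by a DESeq2 size factor for each library. Multiplying back gave whole reads for 100% of values within 1e-06, since RSEM expected counts come rounded for DESeq2. The authors' fold changes and p values were not used, and nothing was tested. The methods describe a modified Smart-seq2 and Nextera preparation, while the labels describe a polyadenylated, strand-specific SureSelect one. Methods and reporting summary also give different program versions, and the annotation release is not given in the sources used here.

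Exon lengths came from GENCODE M21, in which 24042 genes were matched, 666 of them through a RefSeq synonym, and 369 were not. The longest transcript, the mean transcript length and no length were tried as alternatives. Members and lists were chosen with earlier results of these data known. The rule named the 20 genes with the highest share and 10 per length, 5 noncoding genes, the 4 markers, the leading gene of each marker list with its members at 3 or fewer reads, the leading 2 and last members of each family, whole orders for the AMPA, NMDA, GABA-A, HCN and calmodulin families, and the 10 most and 5 least variable genes. Some genes that this rule names are not reported here. The coefficient of variation was taken from shares of reads. Alternatives counted as moved when they differed by more than 1 SD of the libraries, or by 1.5 times for counts. For the median coefficient the SD was that of its leave-one-out values. The code was tested on simulated data. Python 3.11.15, pandas 2.3.3, numpy 2.4.6, scipy 1.17.1 and matplotlib 3.10.9 were used.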

Additional observations from a re-analysis of the deposited data

How the results depend on the processing

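Of 49 alternative values, 38 stayed the same and 11 moved. Not all of the 38 are informative. The authors' normalised counts give the same glial and GABAergic percentages by construction, since a size factor cancels in a ratio within 1 library. The noncoding share fell from 7.53% to 4.17% without ribosomal RNA loci, which follows from the removal of Rn45s. The glial level as a percentage of the pan-neuronal level fell from 34.9 to 28.5 with the longest transcript as length and to 20.7 without 3 genes that other cells also transcribe, an alternative chosen after seeing the data. The GABAergic level as a percentage of the glutamatergic level rose from 27.9 to 37.3 with the longest transcript, 40.5 with the mean transcript length and 41.1 without division by length. The leading family member was kept in 28 of 44 families without division by length. The median coefficient of variation went from 27.2% to 33.9% without a filter on abundance and to 21.9% at a mean of at least 100, and the cause was not tested.

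Leaving out 1 library at a time gave a noncoding share of 6.87% to 8.09%, 13508 to 13613 genes detected and 1058 to 1080.5 genes holding 50% of reads. The glial percentage ran from 31.9 to 38.2 and the GABAergic percentage from 27.7 to 28.2. For both percentages and the noncoding share, dropping 1 of 3 libraries cannot shift the mean by more than 1 SD. They had to count as the same, so their leave-one-out labels carry no information. The same member led in all libraries in 36 to 37 families, the leader was kept in 42 each time, and the median coefficient of variation ran from 19.2% to 25.8%. The median coefficient without replicate 1 and without replicate 2 counted as moved, 2 of 24 such values, but a coefficient from 2 libraries differs from one of 3 in any case. No paired analysis was possible because the results come from no test. The share of mitochondrial RNA was not analysed here, since the table lists no mitochondrially encoded gene.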

Other observations

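Genes outside the receptor and channel families that stood out were grouped into 3 lists chosen after the data were seen, of which 2 are described. All 23 neuropeptide and granule genes were detected, with a sum of 6486, 8578 and 8466 TPM in replicates 1, 2 and 3. Cck was followed by Chgb, a granin of secretory granules, at 1079, 1455 and 1244 TPM and Scg5, a chaperone of a peptide-processing enzyme, at 875, 1132 and 1145 TPM, and all 3 were lowest in replicate 1. Penk, the precursor of enkephalin, was at 147, 372 and 337 TPM, again with replicate 1 the lowest. Gal, the gene of galanin, had 0, 14 and 30 reads.

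Of 16 synaptotagmins 15 were detected, led by Syt11 at 1238, 1600.1 and 1621 TPM, Syt5 at 1102, 1077 and 1279.6 TPM and Syt1 at 987, 1172 and 1223 TPM. Neighbours in this order overlapped, and Syt1 was separate from the next gene, Syt13, at 456, 438 and 438 TPM. Syt2, a calcium sensor of fast synapses, was low at 5.61, 0 and 2.35 TPM.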
